A study of Solanum lycopersicum x Solanum pennellii and Solanum lycopersicum and Solanum pennellii with 31 samples.

Results

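The small RNA (sRNA) loci of an IL8-3 seedling were set against those of M82 seedlings over the whole genome. IL8-3 is an introgression line, an M82 tomato (Solanum lycopersicum) in which a segment of chromosome 8 comes from the wild relative S. pennellii. There was 1 library of IL8-3 and 2 libraries of M82, all labelled as the aerial part of seedlings aged 2 weeks and each from a separate plant. The title of the IL8-3 sample reads RNA-seq where those of M82 read sRNA-seq, and it was taken as an sRNA library because its column stands in the table of sRNA counts. The lines had been sequenced for an earlier study whose line labels were corrected before deposit. The IL8-3 library is compared below with those of other introgression lines on its chromosome 8 loci, though this cannot verify its label. Reads had been mapped to the Heinz genome SL2.50, clustered into sRNA loci and counted. Of 219578 loci in the table, the 52226 with a mean of at least 10 reads over these 3 libraries were compared.

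Plant sRNAs of the heterochromatic kind are cut from double-stranded RNA of repeats and other silent DNA, and they guide DNA methylation to sequences that match them. A locus that makes them can be silent in one genotype and active in another with the same DNA, and such epialleles can be passed on. In an introgression line, the donor segment carries its own loci and its own sequence, while the rest of the genome should be that of the recurrent parent.

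The counts summed to 5688499 in IL8-3, against 4860695 and 2843012 in M82 replicates 1 and 2. A single read was thus worth 0.176 CPM (reads scaled to the library's total) in IL8-3, against 0.206 and 0.352 CPM in M82. Values below are log2 ratios of the IL8-3 CPM to the mean M82 CPM, after 0.5 CPM was added to both, which understates the change of low loci. A locus is called lower or higher where IL8-3 lay outside both M82 libraries, differed from their mean by at least 4-fold, and lay farther from the nearer M82 library than the M82 libraries lay from each other. With 1 library in the line, these calls have no replicate check within it and carry no p-value, and the only replicate spread is that between the 2 M82 plants.

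The introgressed segment was recognised in the study by TG510, a DNA marker amplified with the primer pair printed here, whose product is cut by a restriction enzyme in M82 and not in S. pennellii.
TG510 forward: aatgattgaggatggtgatgct
TG510 reverse: cggcaagaagtttgctcttc

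Allelic sequence of both species was at hand for H06, a locus of chromosome 8 on the M82 side of the border found below, and it is shown for how far the alleles of 1 such locus differ. The last 300 bases of each allele follow, with capitals for every base that lies in a stretch of 24 bases, the usual length of these sRNAs, shared exactly by both alleles.
H06 of M82: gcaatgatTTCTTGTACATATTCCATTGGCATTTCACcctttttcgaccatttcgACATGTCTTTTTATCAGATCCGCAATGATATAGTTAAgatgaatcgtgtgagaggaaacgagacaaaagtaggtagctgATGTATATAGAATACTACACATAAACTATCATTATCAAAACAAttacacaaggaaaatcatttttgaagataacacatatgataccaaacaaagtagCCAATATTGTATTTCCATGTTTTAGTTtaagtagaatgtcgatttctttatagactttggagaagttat
H06 of S. pennellii: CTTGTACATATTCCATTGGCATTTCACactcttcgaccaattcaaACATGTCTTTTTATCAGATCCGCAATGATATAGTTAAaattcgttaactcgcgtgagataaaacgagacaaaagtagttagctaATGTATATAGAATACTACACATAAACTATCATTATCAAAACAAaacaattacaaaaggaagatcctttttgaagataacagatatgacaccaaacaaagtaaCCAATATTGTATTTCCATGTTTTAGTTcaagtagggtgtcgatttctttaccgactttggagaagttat

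Of the 388 stretches of 24 bases in the whole S. pennellii allele, 44 (11.3%) occurred in the M82 allele. Because the reads were placed on a tomato genome, S. pennellii reads that found no match there and sRNAs that were not made cannot be told apart in what follows.

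Along the genome, the IL8-3 ratios left the M82 spread in 1 block, the end of chromosome 8. Medians were taken in bins of 1 Mb for the 618 bins with at least 10 loci. In 5 of them the IL8-3 median lay beyond the range of the same medians of M82 replicate 1 over replicate 2, which was -0.93 to 0.67. Neighbouring bins on chromosome 8 made up 4 of them, all lower. Their medians were -1.67 (223 loci, 62 to 63 Mb), -1.57 (181 loci, 63 to 64 Mb), -1.62 (161 loci, 64 to 65 Mb) and -1.46 (107 loci, 65 to 66 Mb). The remaining bin held 11 loci of chromosome 4 from 35 to 36 Mb, with a median of 0.69 against 0.53 between the M82 libraries. Its value passed the upper limit by less than the SD of the other bins, 0.18.

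**Figure D1:**
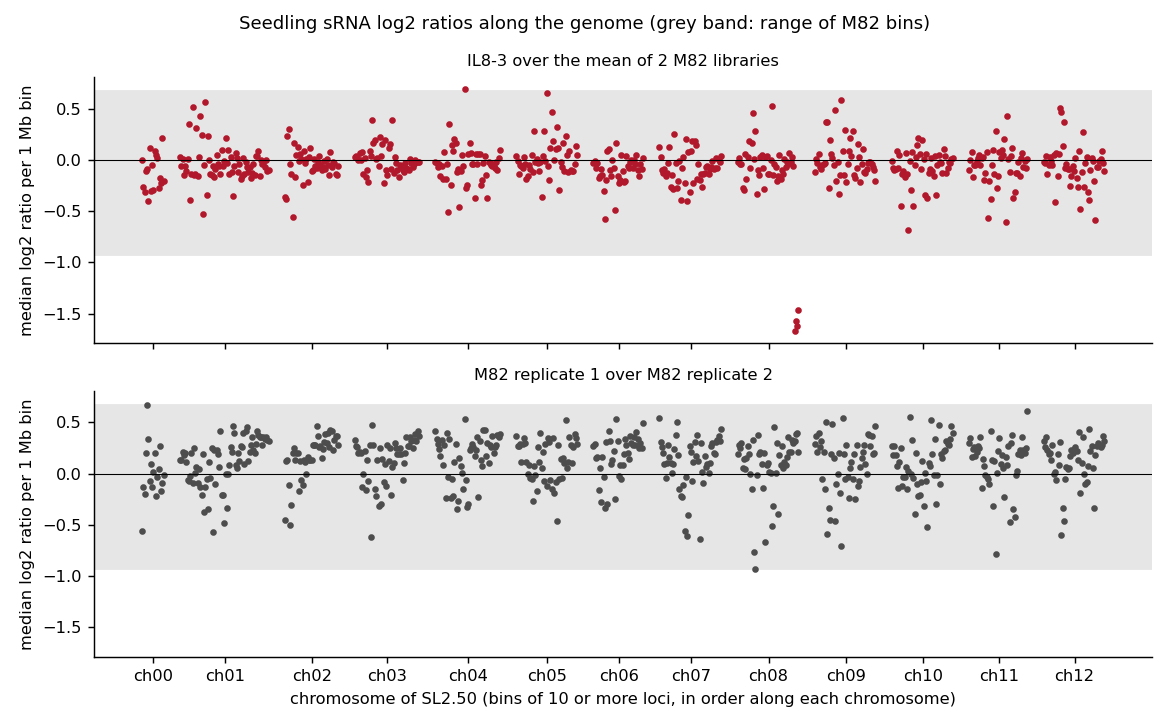
Median log2 ratio of sRNA loci in 1 Mb bins along the chromosomes, for IL8-3 over M82 (top) and for M82 replicate 1 over M82 replicate 2 (bottom). The grey band is the range of the M82 bins, -0.93 to 0.67, and 4 neighbouring bins at the end of chromosome 8 lie far below it, between -1.67 and -1.46.

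The other 614 bins had medians from -0.68 to 0.69, and their SD of 0.18 was smaller than the SD of 0.24 of the M82 bins. The design favours this, since a mean over 2 libraries varies less than 1 library does. Wide values came from bins with few loci, such as chromosome 10 from 26 to 27 Mb (-0.68, 23 loci) and chromosome 5 from 28 to 29 Mb (0.65, 14 loci). In the 289 of these bins with at least 50 loci, the medians ran only from -0.38 to 0.21, against -0.22 to 0.61 between the M82 libraries. Outside the block, the 12 chromosomes had medians between -0.06 and -0.02. No second block of this size was therefore seen at this resolution, although 195 bins of fewer than 10 loci were left out.

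With normalisation factors in place of column totals (TMM or DESeq2 size factors), the M82 range became -1.13 to 0.43 or -1.15 to 0.42 and 15 bins elsewhere exceeded its upper end, while the 4 bins of chromosome 8 remained below it. At a mean count of at least 50, where the M82 range narrowed to -0.37 to 0.75, the 4 bins also stayed below it (-2.64 to -1.93), and 13 bins elsewhere fell below it too, none of them under -0.62. At a mean count of at least 5, and with no filter on low counts, 1 bin of the 4 lay below the M82 range, which then reached down to -1.52 and -0.77.

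To find where the block starts, 2 levels were fitted to the ratios of chromosome 8. The fit placed the step between Cluster_150817, which ends at 62142079, and Cluster_150818, which starts at 62142511, a gap of 431 bases. Loci before the step averaged -0.06 and loci after it -1.60. This is 1.14 Mb past 61 Mb, the position from which the study left out chromosome 8 as introgressed in this line. The 230 loci between 61 Mb and the step had a median of -0.07, and 83.5% of them lay within 2-fold of M82, close to the 84.2% of the rest of the genome. Calls were more frequent there, with 7 lower (3.04%) and 5 higher (2.17%), against 0.665% and 0.717% of all loci outside the block. The stretch ends at a step fitted to these same ratios, and this difference was not tested.

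Loci directly at the step show that single loci can go either way. Before it, Cluster_150811 (chromosome 8, 62128576 to 62128699) had 4.92 CPM in IL8-3, against 4.53 and 3.17 CPM in M82. Cluster_150814 (62139478 to 62139965) had 16 CPM in IL8-3, against 26.5 and 26 CPM in M82. Both stayed within 2-fold of the M82 mean. Cluster_150817 (62142024 to 62142079) had 12 CPM in IL8-3, against 0.617 and 0.352 CPM in M82, and was called higher. After the step, Cluster_150818 (62142511 to 62142709) had 1.58 CPM in IL8-3, against 8.44 and 3.87 CPM in M82. Cluster_150832 (62162743 to 62163230) had 0.352 CPM in IL8-3, against 7.2 and 2.11 CPM in M82. The next locus, Cluster_150834 (62166221 to 62166434), had no read in IL8-3, against 9.67 and 8.44 CPM in M82, at least 17.5-fold lower. Here and below, a bound sets the group at 0 to 3 counts over that group.

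The step moved by less than 0.1 Mb with the way of fitting. Fitted to the share of loci below both M82 libraries, it fell at 62.05 Mb, and fitted to the size of the ratio, whatever its sign, at 62.06 Mb. The 12 loci between the outermost fits, over 92.6 kb, included 3 called lower and 3 called higher. The 218 loci from 61 Mb up to there included 4 lower and 2 higher. Among all loci tested, which include the block, 1.15% were called lower and 0.766% higher. Outside the block, 0.665% were lower and 0.717% higher. The zone of 12 loci was bounded by fits to these same ratios, so nothing is read from its mix of calls. These ways of fitting thus place the border between 62.05 and 62.14 Mb, and with a lower count filter, a mean of at least 5 reads, the first locus after it started at 62160048.

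No far border was found. From 62 Mb to the end, the medians of 20 windows of 0.2 Mb ran from -2.51 to -0.15, whereas those of the 10 windows from 60 to 62 Mb ran from -0.28 to 0.19. The value nearest 0 came from the last window, which held 6 loci. Those 6 loci went both ways. Cluster_153258 (65858100 to 65858174) was called higher with 194 reads in IL8-3, against 1 and 2 in M82, and Cluster_153245 (65841061 to 65841539) was called lower with 13 reads in IL8-3, against 93 and 51 in M82. The last tested locus, Cluster_153264, which ends at 65864119, had 15 reads in IL8-3, against 26 and 18 in M82. A fit of 3 levels kept the same first step, and loci from its second step at 62.7 Mb still averaged -1.46.

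**Figure D2:**
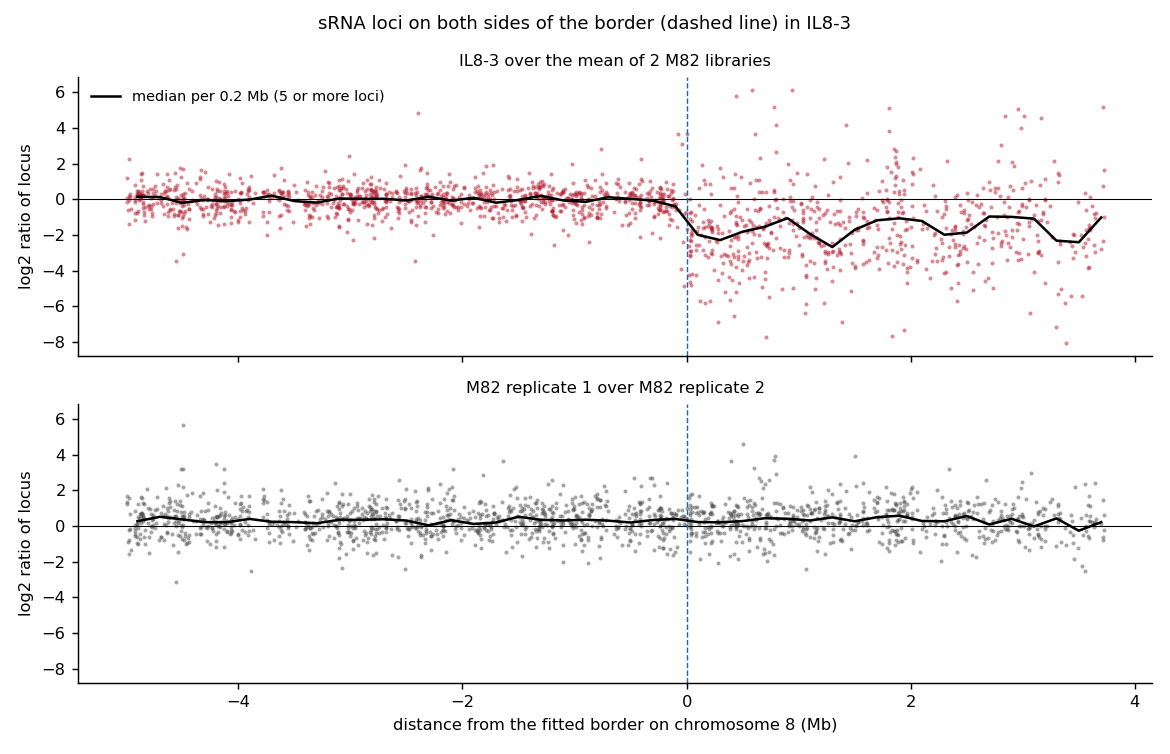
Log2 ratio of each sRNA locus of chromosome 8 against its distance from the fitted border in Mb, for IL8-3 over M82 (top) and M82 replicate 1 over replicate 2 (bottom), with medians per 0.2 Mb as a black line. Over all tested loci of chromosome 8, plotted or not, the mean for IL8-3 was -0.06 before the border and -1.60 after it. In the top panel the line steps down at the border, and single loci scatter widely on both sides of 0. The bottom panel has no step.

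Taken from 61 Mb as the study drew it, the region held 877 loci with a median of -1.03. Of these, 262 (29.9%) were called lower and 35 (3.99%) higher, against 1.15% lower and 0.766% higher among all loci tested. Taken from the fitted step, it held 647 loci with a median of -1.65 (quartiles -2.95 and -0.44), and the same loci had a median of 0.33 between the M82 libraries. Of the 647, 255 (39.4%) were called lower and 30 (4.64%) higher. A further 362 (56%) met neither rule, and 168 (26%) lay within 2-fold of M82. IL8-3 lay below both M82 libraries at 484 of the 647 loci (74.8%), whereas over all loci it did so at 33.4%. Since the step was placed on these same ratios, the values from the step are a description.

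The libraries of IL1-1 and IL2-5 were looked up for comparison. At the same 647 loci, the median was -0.20 in IL1-1 with 2 loci called lower, and -0.28 in IL2-5 with 5 called lower. These lines carry S. pennellii segments of other chromosomes and share the M82 libraries as controls. The loci were chosen by a step fitted to the ratios of the line under study. Its contrast with the other lines is thus largely set by that choice. The relabelled libraries included other lines of the same chromosome, and none of those was among the libraries compared. The label was therefore not verified here.

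**Figure D3:**
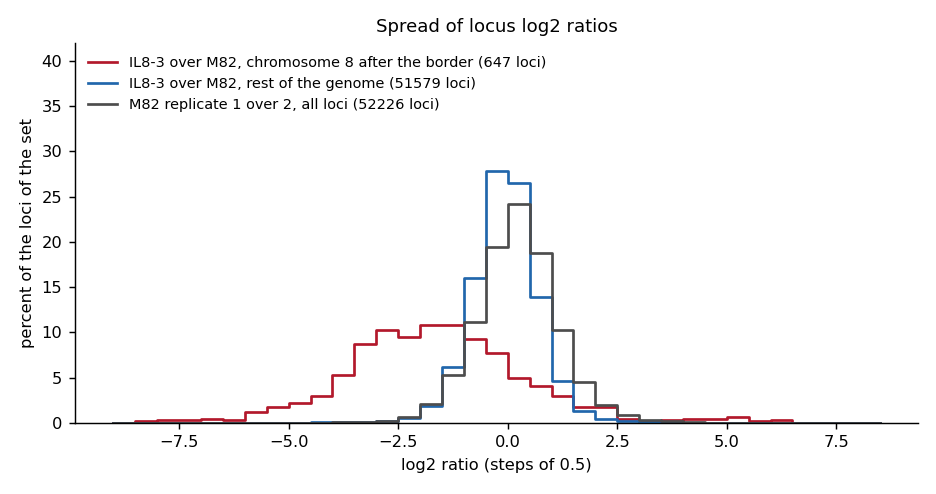
Share of loci in percent by log2 ratio, in steps of 0.5, for IL8-3 over M82 on chromosome 8 after the border, IL8-3 over M82 in the rest of the genome, and M82 replicate 1 over replicate 2. The loci after the border are centred on -1.65 with a long lower side and a small group above 4, while the rest of the genome is centred on -0.05.

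Ratios in the block were lower at loci that were rich in M82. This is in part built in, since the added 0.5 CPM limits how low the ratio of a poor locus can go and the M82 level is also the ratio's denominator. The loci of like level elsewhere are therefore given beside each group. The 647 loci were divided by their mean level in M82 into 5 groups of near equal size. In the highest group (19.4 to 4317 CPM) the median ratio was -2.97 and 61.5% were called lower, against -0.24 and 0.898% for loci of the same level in the rest of the genome. In the next (9.18 to 19.4 CPM) the median was -2.26, against -0.20 elsewhere. From 5.71 to 9.18 CPM it was -1.73, against -0.15, and from 3.8 to 5.71 CPM it was -1.70, against -0.14. In the lowest group (up to 3.8 CPM) the median was 0.27, against 0.21. At so low a level in M82, the count filter favours loci with many reads in IL8-3, so no change is read from that group. With the filter on the M82 libraries alone, an alternative added after the data were seen, the median from 61 Mb became -1.46.

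**Figure D4:**
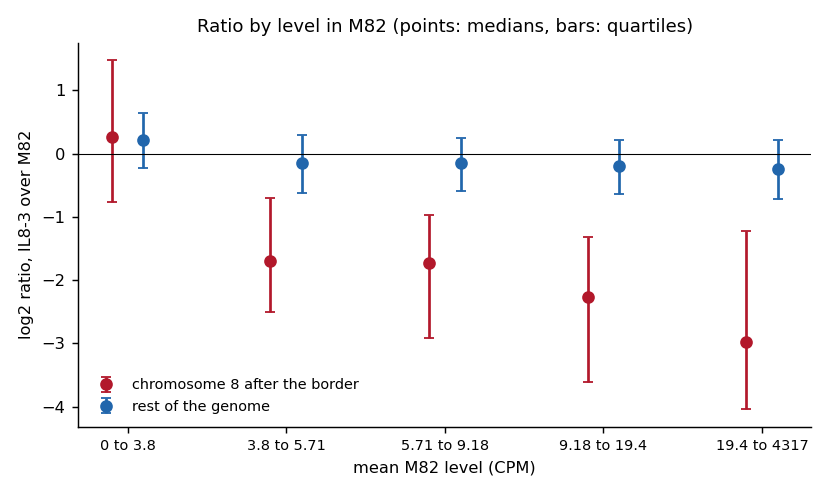
Median log2 ratio of IL8-3 over M82, with quartiles as bars, by group of mean M82 level in CPM, for loci of chromosome 8 after the border and for loci of the rest of the genome in the same range of level. The medians after the border run from 0.27 in the lowest group to -2.97 in the highest, and those elsewhere stay between -0.24 and 0.21.

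Loci under the filter were summed as well. The filter counts IL8-3 reads, so a locus that had lost them falls under it more readily than one that had gained them, and the sums are a description only. The 1770 of them after the step summed to 704 CPM in IL8-3, against 1643 and 1310 CPM in M82, a ratio of 0.463 (95% exact interval 0.447 to 0.48, which covers counting error only, as amplified reads are not independent molecules). In the rest of the genome, 164075 such loci gave a ratio of 0.977 (0.974 to 0.98). IL8-3 had no read at 37.9% of those after the step, whereas elsewhere it had none at 10.7%.

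The block was thus thinned rather than emptied. Its tested loci summed to 9016 CPM in IL8-3, against 16578 and 20176 CPM in M82. A single locus, Cluster_152591 (64724094 to 64724630), carried 3473 CPM in IL8-3, against 1988 and 6645 CPM in M82. Without it, the sum was 5543 CPM in IL8-3, against 14590 and 13531 CPM in M82, a ratio of 0.394.

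Among the richest M82 loci of the region, some were all but lost. Cluster_151346 (62847893 to 62847965) had 7.91 CPM in IL8-3, against 1903 and 1616 CPM in M82, a pooled ratio of 0.0044 (95% exact interval 0.00321 to 0.00589). IL1-1 and IL2-5 had 2041 and 2476 CPM there, so that it was abundant in each of the other 4 libraries. Cluster_153089 (65527886 to 65528093) had 3 reads in IL8-3, against 874 and 1065 in M82, a pooled ratio of 0.0021 (0.000432 to 0.00613). Its level varied between the other lines as well, with 28.8 CPM in IL1-1 and 34.1 CPM in IL2-5, below the 180 and 375 CPM of M82. Cluster_152103 (63973669 to 63973793) had 4 reads in IL8-3, against 1566 and 479 in M82, a pooled ratio of 0.00265 (0.000721 to 0.00679). Cluster_152583 (64701190 to 64701421) kept 8.09 CPM in IL8-3, against 359 and 211 CPM in M82, a ratio of 0.0266 (0.0194 to 0.0355).

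Of the 255 loci called lower after the step, 41 had no read in IL8-3. Cluster_152221 (64083596 to 64083833) was the richest of those named, with 0 reads in IL8-3 against 562 and 126 in M82, at least 169-fold lower. Cluster_152892 (65204177 to 65204481) had 0 reads in IL8-3 against 195 and 120 in M82, at least 77.5-fold lower. Cluster_151107 (62561476 to 62561602) had 0 reads in IL8-3 against 110 and 197 in M82, at least 75.6-fold lower. At the other named losses a few reads were left in IL8-3. Cluster_153045 (65442964 to 65443360) had 3 against 448 and 581 in M82, Cluster_151829 (63532846 to 63533062) had 1 against 272 and 292, Cluster_151017 (62421024 to 62421126) had 1 against 146 and 369, and Cluster_151588 (63202284 to 63202539) had 10 against 795 and 613.

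Other rich loci were not called. Besides Cluster_152591, Cluster_153189 (65742864 to 65742946) had 553 CPM in IL8-3, against 565 and 469 CPM in M82, inside the M82 range. Cluster_152632 (64783526 to 64783784) had 153 CPM in IL8-3, against 218 and 317 CPM in M82, below both yet within 2-fold of their mean. Cluster_152520 (64608267 to 64608416) had 146 CPM in IL8-3, against 607 and 388 CPM in M82, a ratio of 0.277 (0.257 to 0.299) that did not reach 4-fold. Cluster_151599 (63219823 to 63220079) went the other way with 609 CPM in IL8-3, against 274 and 180 CPM in M82, also short of the rule. Its level in IL1-1 and IL2-5, 561 and 438 CPM, was above that of M82 as well. Cluster_150171 (61096843 to 61098515), before the step, had 1603 CPM in IL8-3, against 1967 and 1568 CPM in M82.

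The loci called higher after the step were fewer than those called lower, and shorter. These 30 loci had a median length of 90.5 bases, against 210 for those called lower and 256 for those not called. In the rest of the genome the order was the same, with 132 for higher, 158 for lower and 229 for not called. The share called higher was 4.64% after the step, against 0.717% in the rest of the genome. These 30 loci had a median level of 0.705 CPM in M82 and 18.8 CPM in IL8-3. In the lowest group of M82 level, up to 3.8 CPM, 19.2% were called higher, against 1.57% elsewhere. The count filter includes IL8-3 reads, so loci so poor in M82 could pass it through their gain. Neither the share nor the lengths are therefore read as a trait of the block. At 5 of the 30 loci neither M82 library had a read, and at 4 of these all 4 other seedling libraries were at 0. Cluster_151520 (63083997 to 63084087) had 196 reads in IL8-3 and 0 in each of the other 4 libraries, at least 88.5-fold higher than M82. Cluster_152087 (63951824 to 63951867) had 95 reads in IL8-3 and none elsewhere, at least 42.9-fold higher. Cluster_152868 (65150875 to 65150892), an interval of 18 bases, had 70 reads in IL8-3 and none elsewhere, at least 31.6-fold higher. Among the 5 libraries of the table, these loci were thus defined by IL8-3 alone.

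The other named gains in the block had a few M82 reads. Cluster_151235 (62723752 to 62723852) had 342 reads in IL8-3, against 2 and 1 in M82, a pooled ratio of 154 (52.4 to 752). Cluster_151127 (62582259 to 62582366) had 253 reads in IL8-3, against 3 and 0 in M82, a pooled ratio of 114 (38.6 to 558). Cluster_152747 (64985185 to 64985265) had 78.9 CPM in IL8-3, against 2.47 and 2.81 CPM in M82, and Cluster_152964 (65302740 to 65302774) had 43.9 CPM in IL8-3, against 1.44 and 1.41 CPM in M82. Cluster_151408 (62922942 to 62922979) and Cluster_152832 (65099787 to 65099929) had 204 and 126 reads in IL8-3, against 3 and 1 reads over both M82 libraries. Cluster_153258, near the chromosome end, differed from these in that IL1-1 and IL2-5 held 271 and 311 reads there, more than the 194 of IL8-3.

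The 255 lower loci of the block included 24 unbroken runs of at least 3 tested loci, the longest of 8. Outside, where a far smaller share was called, there were 8 pairs of lower and 8 pairs of higher neighbours and no longer run. With such unequal shares, nothing about clustering is read from these counts.

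Outside chromosome 8 from 61 Mb, 336 loci (0.654%) were called lower and 365 (0.711%) higher out of 51349. Between the M82 plants, 3.45% of all loci differed at least 4-fold in favour of replicate 1 and 1.03% in favour of replicate 2. Those shares rest on 4-fold alone, a looser rule than that of the calls. On that single criterion of 4-fold, IL8-3 was lower than the M82 mean at 1.11% and higher at 0.791% of the loci outside the block, or 1.63% and 0.839% of all loci, though a mean over 2 libraries varies less than 1 library does. The counts rested on both M82 libraries. Against 1 of them alone, the criterion of the M82 spread falls away, so the rule is looser as well. Against replicate 1 alone 542 were lower and 524 higher, and against replicate 2 alone, the shallowest library, 849 were lower and 1677 higher. In an edgeR quasi-likelihood fit with Benjamini-Hochberg adjustment, in which the lone library is assumed to vary like M82, 92 were lower and 146 higher.

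Called loci outside were spread over the genome. Across the 12 chromosomes without the block, the share called lower ran from 0.527% to 0.842% and the share called higher from 0.439% to 1.04%. Chromosome 8 before the step had 29 of 3450 loci lower (0.841%), near the top of that range, and 25 higher (0.725%). Of these, 7 lower and 5 higher lay among the 230 loci between 61 Mb and the step. Most changes were small or of poor loci. Counted from the step, 264 of the 370 higher loci and 255 of the 343 lower loci stayed under 8-fold, and 33 higher and 27 lower loci passed 16-fold. The level reached 50 CPM in IL8-3 at 52 of the higher loci, and in M82 at 23 of the lower loci.

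The same rule was applied to the other lines. Over 45585 loci outside the introgressions of all 3 lines, 309 (0.678%) were lower and 325 (0.713%) higher in IL8-3, 417 (0.915%) and 176 (0.386%) in IL1-1, and 639 (1.4%) and 168 (0.369%) in IL2-5. The medians over these loci were -0.04 in IL8-3, -0.15 in IL1-1 and -0.26 in IL2-5. The loci had been filtered on counts that include IL8-3 and not the other lines. A gain in IL8-3 alone could thus pass the filter, and a gain in another line alone could not. The lines share the M82 controls, a difference between lines was not tested, and no ranking of the lines is read from these counts.

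The largest called gain outside was that of H06, Cluster_145814 (chromosome 8, 54487405 to 54487649), a locus the study chose for its gain of sRNA in these lines. It had 1364 reads in IL8-3, against 1 and 0 in M82, a pooled ratio of 1847 (331 to 73014). The gain was not particular to IL8-3, as IL1-1 and IL2-5 held 1185 and 1008 reads there. The next, Cluster_171297 (chromosome 10, 727615 to 727691), was different. It had 780 reads in IL8-3 and 0 in both M82 libraries, at least 352-fold higher, and IL1-1 and IL2-5 had 0 and 1 reads. Cluster_79954 (chromosome 4, 59064372 to 59064416) likewise had 273 reads in IL8-3, against 0 and 2 in M82, with none in IL1-1 and IL2-5. Of the 10 named gains outside, these 2 were high in IL8-3 alone.

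Another 3 named gains were shared mainly with IL2-5. Cluster_63181 (chromosome 3, 64792388 to 64792427) had 196 reads in IL8-3 and none in M82, at least 88.5-fold higher, with 149 in IL2-5 and 0 in IL1-1. Cluster_145241 (chromosome 8, 53261166 to 53261237) had 203 reads in IL8-3 and none in M82, at least 91.6-fold higher, with 101 in IL2-5 and 0 in IL1-1. Cluster_123752 (chromosome 7, 23224083 to 23224149) had 508 reads in IL8-3, against 6 and 3 in M82, with 497 in IL2-5 and 18 in IL1-1.

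The remaining named gains were present in all 3 lines. Cluster_36311 (chromosome 2, 37821363 to 37821421) had 411 reads in IL8-3 and none in M82, at least 186-fold higher, with 229 and 174 reads in IL1-1 and IL2-5. Cluster_172540 (chromosome 10, 2310782 to 2311063) had 265 reads in IL8-3 and none in M82, at least 120-fold higher, with 223 and 102 reads in IL1-1 and IL2-5. Cluster_215987 (chromosome 12, 62124935 to 62125109) had 1493 reads in IL8-3, against 3 and 2 in M82, a pooled ratio of 404 (173 to 1247). Cluster_186099 (chromosome 10, 63524794 to 63524922) had 182 reads in IL8-3, against 1 and 0 in M82, with 119 and 20 in IL1-1 and IL2-5.

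**Figure D5:**
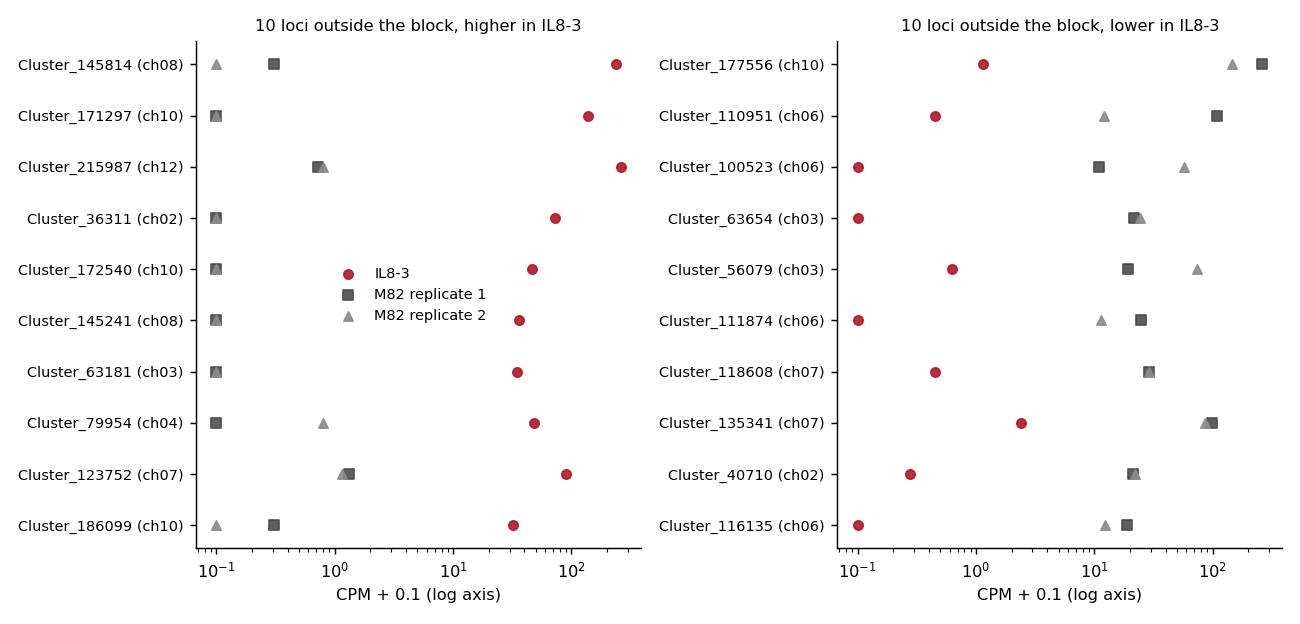
Level of each named locus outside the block in IL8-3 (circles), M82 replicate 1 (squares) and M82 replicate 2 (triangles), as CPM plus 0.1 on a log axis, for the 10 largest called gains (left) and the 10 largest called losses (right). At every one of the 20 loci IL8-3 lies outside both M82 libraries, which the rule of choice requires, and Cluster_110951 has the widest gap between the M82 libraries.

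The largest called loss outside the block was at Cluster_177556 (chromosome 10, 34952469 to 34952652). It had 6 reads in IL8-3, against 1271 and 412 in M82, a pooled ratio of 0.00483 (0.00177 to 0.0105). IL1-1 and IL2-5 had 1062 and 950 reads, so that this locus was low in IL8-3 and not in the other 4 libraries. No other named loss outside had this pattern as clearly. At Cluster_135341 (chromosome 7, 67893115 to 67893364) IL8-3 had 2.29 CPM, against 99.2 and 85.8 CPM in M82, and the other lines lay between, with 63.2 CPM in IL1-1 and 14.5 CPM in IL2-5.

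At 6 of the named losses IL1-1 and IL2-5 also had at most 14 reads each. Cluster_63654 (chromosome 3, 65530702 to 65530766) had 0 reads in IL8-3 against 104 and 69 in M82, at least 42.6-fold lower, with 1 and 0 in IL1-1 and IL2-5. Cluster_118608 (chromosome 7, 1453810 to 1453926) had 2 reads in IL8-3 against 140 and 82 in M82, and Cluster_40710 (chromosome 2, 44990293 to 44990343) had 1 against 103 and 62. Cluster_40710 lies in the part of chromosome 2 left out by the study as introgressed in IL2-5, so IL2-5 is no like comparison there. Cluster_116135 (chromosome 6, 47125388 to 47125497) had 0 reads in IL8-3 against 91 and 35 in M82, at least 31-fold lower. The other losses of this kind had M82 libraries that differed strongly from each other. Cluster_110951 (chromosome 6, 39116303 to 39116347) had 0.352 CPM in IL8-3, against 108 and 12 CPM in M82, and Cluster_100523 (chromosome 6, 8696 to 8777) had 0 CPM in IL8-3, against 10.9 and 57 CPM in M82. The last of the 10 were split between the lines. Cluster_56079 (chromosome 3, 51375818 to 51375854) was low in IL1-1 and not in IL2-5, and Cluster_111874 (chromosome 6, 40480509 to 40480592) was at 0 in IL2-5 and kept 40 reads in IL1-1.

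Regions that the study had followed up or listed as methylated differently in these lines were looked up in the same way. They were chosen with these lines in view and are no independent evidence of a direction. For the more methylated regions followed up, differential sRNA in these seedling libraries was among the study's criteria of choice. Each called locus of the regions followed up lies at H06 or in a region that the study lists with differential sRNA. Those calls are thus in large part built in. Of the 18 regions that had been followed up, 8 tested loci were found, with 5 called higher and 1 lower and a median of 4.56, against -0.05 over all loci, of which 0.766% were called higher and 1.15% lower. Besides H06 and Cluster_215987, the higher ones were Cluster_42481 (chromosome 2, 48226523 to 48226689), Cluster_149224 (chromosome 8, 59748563 to 59748752) and Cluster_79739 (chromosome 4, 58749061 to 58749351). Cluster_42481 had 16 CPM in IL8-3 and none in M82, at least 41.1-fold higher. Cluster_149224 had 21.8 CPM in IL8-3, against 0.206 and 0.352 CPM in M82. Cluster_79739 had 27.1 CPM in IL8-3, against 1.85 and 0 CPM in M82. Cluster_116135 was the lower one.

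The 2 others stayed short of the rule. Cluster_92231 (chromosome 5, 22507992 to 22508406) had 6.15 CPM in IL8-3, against 1.03 and 1.41 CPM in M82, although it overlaps a region listed as less methylated in the lines. Cluster_164356 (chromosome 9, 61961493 to 61961545) had 0.703 CPM in IL8-3, against 3.7 and 2.81 CPM in M82, in a region listed as more methylated.

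Of 25 regions listed as more methylated in the lines at cytosines of all 3 sequence contexts, 4 tested loci were found. H06 and Cluster_215987 were called higher, against 0.766% of all loci. Cluster_192822 (chromosome 11, 8613145 to 8613371) was lower with 23 CPM in IL8-3, against 105 and 126 CPM in M82, and Cluster_58374 (chromosome 3, 55444938 to 55445075) was lower with 0.527 CPM in IL8-3, against 4.73 and 6.68 CPM in M82. Of 10 regions listed as less methylated, 3 tested loci were found, and all 3 were called lower, against 1.15% of all loci. Cluster_65663 (chromosome 3, 68920296 to 68920338) had 0.352 CPM in IL8-3, against 5.55 and 19 CPM in M82. Cluster_63655 (chromosome 3, 65530839 to 65531274), the neighbour of Cluster_63654, had 0 reads in IL8-3 against 38 and 7 in M82, at least 11.1-fold lower. Cluster_22241 (chromosome 1, 87137503 to 87137845) had 0.352 CPM in IL8-3, against 3.91 and 5.98 CPM in M82.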

How the data were processed

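The sRNA libraries of seedlings were mapped and clustered on the Heinz genome SL2.50 by the authors with ShortStack under default parameters, and the raw counts of reads per locus were deposited without normalisation or size class. For H06 counts, the authors mapped with Bowtie 1.1.1 and allowed no mismatch, and for the loci of this table the mismatches allowed are not given in the sources used here. The H06 tables of other tissues and the Micro-Tom and S. pimpinellifolium libraries were not used here.

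Counts were divided by column totals (CPM), and 0.5 CPM was added before the log2 ratio. Loci with a mean count of at least 10 over the 3 libraries were kept. Python 3.11.15 with scipy 1.17.1 gave the ratios, the least squares borders and the exact intervals, and edgeR 4.0.16 and DESeq2 1.42.0 in R 4.3.3 were alternatives, with adjusted p under 0.05. Scripts were tested on simulated data.

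Named loci were the 10 largest called per direction in the region from 61 Mb and outside it, 3 on each side of the border, the 10 most abundant of the region, and tested loci in regions listed by the study. These members and lists were chosen with earlier results of these data known. Where M82 or IL8-3 had no reads, setting such loci to their bound left the medians of the block at -1.65 and -1.03. Other pseudocounts, filters, normalisation factors, folds, bins and fits, and leaving out each M82 library, were tried. Gene and repeat annotation was not used here.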

Additional observations from a re-analysis of the deposited data

How the results depend on the processing

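The median from 61 Mb, -1.03, became -0.80 with a pseudocount of 2 CPM, -0.61 with no filter and -1.46 with the filter on M82 alone (chosen after the data were seen), and ran from -1.12 to -0.89 without each M82 library. Of the loci called there, 262 lower and 35 higher, the counts were 147 and 20 with 2 CPM, 88 and 15 at a mean count of at least 50, 148 and 19 at 8-fold, 135 and 20 by edgeR and 81 and 9 by DESeq2. At 2-fold, 61 were higher. Without each M82 library, and so without the criterion of the M82 spread, 244 to 302 were lower and 40 to 47 higher.

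Outside, 336 lower and 365 higher became 93 and 167 with 2 CPM, 561 and 578 at a mean count of at least 5, 70 and 112 at 50, 652 and 737 with no filter, 2791 and 2262 at 2-fold, 86 and 103 at 8-fold, 92 and 146 by edgeR, 43 and 44 by DESeq2, and 47 and 99 against all 4 other libraries (chosen after the data were seen). With 0.1 CPM, 558 were lower. Without each M82 library, and so without the criterion of the M82 spread, 542 to 849 were lower and 524 to 1677 higher. Over all loci edgeR called 393, of which 367 were called in the same direction by the 4-fold rule, and 3246 had an unadjusted p under 0.05. DESeq2 called 177, 174 of them shared, and gave no adjusted p for 22276 loci.

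The first locus after the border, 62142511, became 62108804 with 0.1 CPM and without either M82 library, 62160048 at a mean count of at least 5, 62096850 at 50, 62063135 with no filter, 62049870 for the share below M82 and 62060797 for the size of the ratio (chosen after the data were seen). The 5 shifted bins became 2 at a mean count of at least 5, 17 at 50, 1 with no filter, 19 with TMM factors, 19 with DESeq2 size factors and 10 in bins of 0.5 Mb, and need both M82 libraries. All 4 bins from 62 Mb stayed lower at 50 and with either factor, and 1 of the 4 did at 5 and with no filter. The factors moved the median between the M82 libraries to -0.01 (TMM) and -0.02 (DESeq2), against 0.22 with column totals, and that of IL8-3 to -0.03 and -0.05, against -0.05. The cause of these moves was not tested. None of the 52 called named loci reversed in 507 values. The call itself all but ensures this, since it requires IL8-3 to lie outside both M82 libraries and 4-fold from their mean, so nothing is read from it. No paired analysis was possible because IL8-3 has 1 library without a replicate number. Depth limits low loci most: 277 tested loci were at 0 in M82 replicate 2.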
